A study of Mus musculus with 35 samples.

Results

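The 35 genes described here encode the machinery of mitosis and of the spindle, the microtubule array that separates chromosomes. They were taken by gene symbol from a list of mitotic cyclins and kinases, checkpoint, kinetochore, spindle and cytokinesis genes. Membership rests on the symbol and on no measured value, but the list was drawn up with earlier results of these data known. All 35 were found among the 22609 gene symbols of the count tables (17169 symbols had any count). The study sequenced polyadenylated RNA of 3 sorted cell populations of the mouse hind paw skin in 35 libraries. All mice were of strain C57 and 8 to 16 weeks old. Immune cells were sorted as CD45-positive cells of wild-type mice, fibroblasts as Col1a2-positive cells of Col1a2-cre-ER/tdTom mice and keratinocytes as K5-positive cells of K5-cre-ER/tdTom mice, in which an inducible Cre under a collagen or a basal keratin promoter switches on a red fluorescent protein, so that descendants of a marked cell keep the mark. Each sort was made in 3 groups, females on vehicle, males on vehicle and males on the drug paclitaxel (PTX). A group has 4 libraries, but the keratinocytes of vehicle males have 3. PTX was given intraperitoneally at 2 mg/kg in 2 injections 1 day apart, with skin collected on day 6 after the second. The labels do not state that each library came from a separate animal, so p-values measure the spread between these libraries, which may be technical.

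Paclitaxel binds and stabilises microtubules, so that a dividing cell cannot complete its spindle and is held in mitosis by the spindle checkpoint. The mitotic genes are transcribed late in the cell cycle and their RNA is low in resting cells, which makes their RNA a common measure of how many cells of a population are cycling. In skin, the basal keratinocytes renew the epidermis by division, whereas most dermal fibroblasts of adult skin rest. In bulk libraries, fewer cycling cells and less RNA per cycling cell cannot be told apart.

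Promoters of late cell cycle genes are known for 2 short elements: the CCAAT box, bound by the factor NF-Y, and the cell cycle genes homology region (CHR). The latter is bound by MuvB complexes, among them DREAM, which represses these genes in resting cells. The CHR was searched as TTTGAA or TTCGAA and the box as CCAAT, on both strands, in promoters that run from 250 bases before to 50 bases after the start site in RefSeq (build GRCm38.p6). TTTGAA and CCAAT on opposite strands can share bases, and TTCGAA reads the same on both strands. Promoters were matched for 30 of the 35 genes (31 promoters, Prc1 with 2). A CHR match lay in 22 of the 31 promoters (71%) against 19.2% of all 32851 promoters of that length, a CCAAT match in 23 (74.2%) against 37.4%, and both in 20 (64.5%) against 7.52%. Birc5, Mad2l1, Melk, Nuf2, Nusap1 and Pttg1 held neither. Such a match is a description of these letters, and no binding was measured. The promoters below are shown because their genes carry the contrasts described after them. By the main test, Cdca3 and Kif11 were called lower with PTX in immune libraries, and Mki67 and Ccnb2 were called between all 3 populations. Pttg1 was present in every fibroblast library. The calls of Cdca3 and Kif11, and of Mki67 between immune cells and keratinocytes, were lost in most fits that left out 1 library. Capitals mark CHR matches and CCAAT boxes, read on either strand. Cdca3 lies at chr6:124829926-124830225, + strand, Kif11 at chr19:37376132-37376431, + strand, Mki67 at chr7:135716330-135716629, - strand, Ccnb2 at chr9:70421505-70421804, - strand and Pttg1 at chr11:43425932-43426231, - strand.
Cdca3: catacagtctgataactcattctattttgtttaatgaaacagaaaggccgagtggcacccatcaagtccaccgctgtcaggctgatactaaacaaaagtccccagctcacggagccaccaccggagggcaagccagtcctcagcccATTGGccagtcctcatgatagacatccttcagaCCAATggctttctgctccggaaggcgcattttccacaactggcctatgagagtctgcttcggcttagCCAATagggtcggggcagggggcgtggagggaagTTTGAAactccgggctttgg
Kif11: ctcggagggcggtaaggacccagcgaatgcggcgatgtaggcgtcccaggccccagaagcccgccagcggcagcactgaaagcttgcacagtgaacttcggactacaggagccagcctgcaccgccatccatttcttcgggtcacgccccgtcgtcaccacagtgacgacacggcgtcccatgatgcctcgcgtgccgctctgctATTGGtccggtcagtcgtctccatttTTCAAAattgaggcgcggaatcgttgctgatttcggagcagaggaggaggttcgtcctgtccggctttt
Mki67: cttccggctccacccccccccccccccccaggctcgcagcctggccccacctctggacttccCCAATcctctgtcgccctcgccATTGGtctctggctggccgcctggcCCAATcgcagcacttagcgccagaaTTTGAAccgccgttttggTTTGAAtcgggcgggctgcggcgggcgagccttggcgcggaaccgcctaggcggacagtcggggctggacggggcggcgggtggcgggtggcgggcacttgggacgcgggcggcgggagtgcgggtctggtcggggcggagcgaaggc
Ccnb2: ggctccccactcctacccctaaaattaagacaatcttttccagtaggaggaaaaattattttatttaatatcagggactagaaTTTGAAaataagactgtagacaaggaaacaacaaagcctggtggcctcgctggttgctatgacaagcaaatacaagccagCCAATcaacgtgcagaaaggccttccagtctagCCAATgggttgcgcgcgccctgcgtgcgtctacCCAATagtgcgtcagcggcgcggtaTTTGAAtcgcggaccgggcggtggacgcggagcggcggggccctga
Pttg1: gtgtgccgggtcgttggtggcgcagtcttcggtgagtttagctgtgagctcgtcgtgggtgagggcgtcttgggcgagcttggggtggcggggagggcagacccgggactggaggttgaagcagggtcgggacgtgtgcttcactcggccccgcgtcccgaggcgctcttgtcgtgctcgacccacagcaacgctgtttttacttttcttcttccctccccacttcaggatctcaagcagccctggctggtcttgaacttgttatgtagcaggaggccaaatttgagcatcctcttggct

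**Figure D1:**
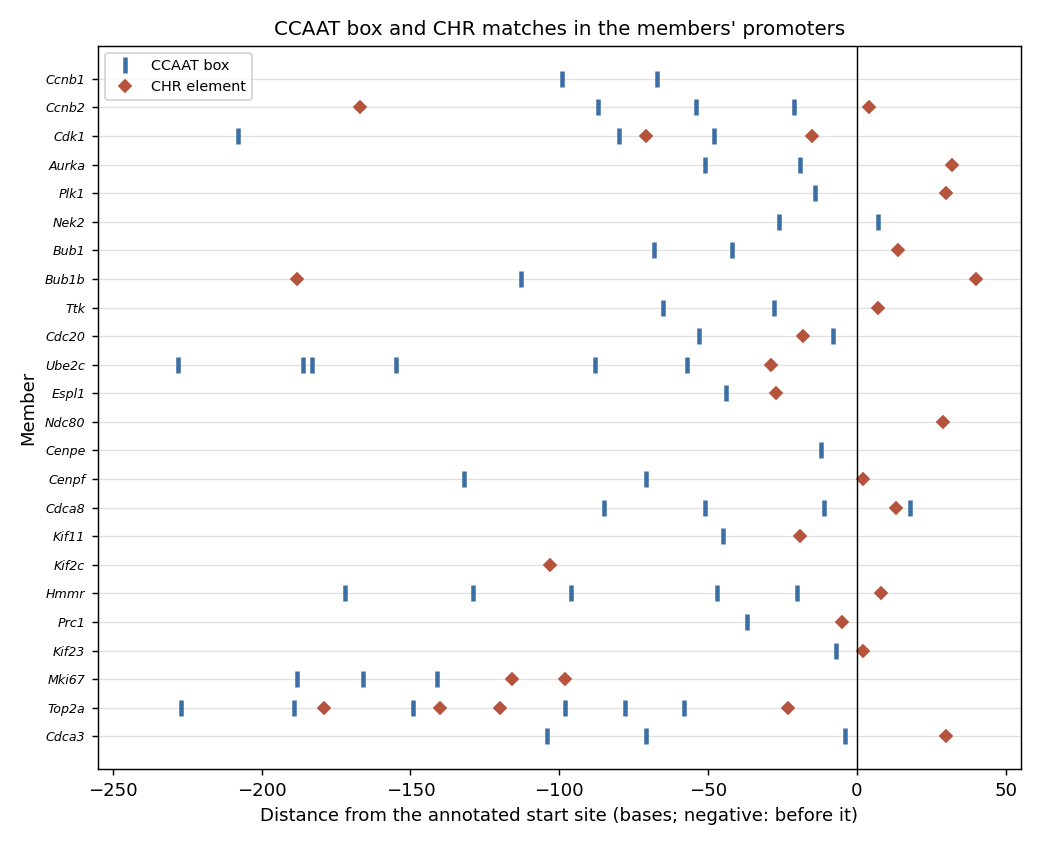
Position of CCAAT boxes (vertical ticks) and CHR matches (diamonds) relative to the annotated start site, in bases, for the 24 genes with a match in a RefSeq promoter (1 row per gene). In 19 genes both motifs are present, and Cenpf, Kif23, Ccnb2 and Prc1 each have a CHR match within 5 bases of the start site.

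Depth was highest in the immune (13847475 to 18979776 reads counted in genes) and fibroblast libraries (13359088 to 20809036). Keratinocyte libraries had 6518070 to 12055718 such reads, but for vehicle female 2 with 988712. These were 19.3 to 27.2% of the reads in keratinocyte libraries, 38.7 to 46.0% in immune and 35.4 to 52.3% in fibroblast libraries. Reads without a unique place made up 48.3 to 60.9%, 42.2 to 47.8% and 34.9 to 47.7% in the same order. The part of this in the differences between populations was not tested. Levels are given as CPM, the reads of a gene per 1000000 reads counted in genes. CPM is not corrected for gene length, so each gene is compared between libraries and not with other genes. Fold changes come from edgeR's quasi-likelihood test with TMM scaling, in which a gene is called at a Benjamini-Hochberg adjusted p under 0.05 over all genes tested. Each sort carried its defining RNA: in the vehicle libraries the 10 pan-immune markers summed to 6083 to 10952 CPM in immune libraries and to at most 141 in the others, the 12 fibroblast markers to 53546 to 80610 CPM in fibroblast libraries, and the 10 basal keratinocyte markers to 25016 to 38903 CPM in keratinocyte libraries. Immune libraries of vehicle males also carried fibroblast markers (5567 to 12390 CPM, against 344 to 786 in vehicle females and 642 to 1746 with PTX) and basal keratinocyte markers (104 to 3086 CPM, against 29.8 to 102 and 25.0 to 95.3). Keratinocyte libraries of PTX males carried fibroblast markers at 14637 to 21784 CPM, endothelial markers at 2688 to 3817 and pan-immune markers at 1024 to 1606, and their basal keratinocyte markers were at 4591 to 12578 CPM.

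Keratinocytes held the most mitotic RNA at rest, immune cells an intermediate amount and fibroblasts almost none. Summed over the 35 genes, levels were 1989 to 3042 CPM in keratinocytes of vehicle females and 1937 to 5042 in those of vehicle males, 401 to 480.5 and 314 to 557 CPM in immune cells, and 60.5 to 122 and 54.1 to 216 CPM in fibroblasts. No vehicle library of one population overlapped another in this sum. The mean level followed the order keratinocyte, immune, fibroblast for 32 of the 35 genes, and the exceptions were Pttg1, Incenp and Cdc20. For 10 of the 32 the median was lower in keratinocytes than in immune cells (Aurka, Plk1, Nek2, Melk, Bub1, Bub1b, Espl1, Nuf2, Cenpe and Kif23), and for Ttk and Kif2c both medians were 0, so the higher keratinocyte mean of these 12 rests on some of the libraries. Plk1, for example, had a median of 0 CPM in keratinocytes and 6.65 in immune cells, and the Espl1 means were 34.6 and 34.5 CPM. Incenp, the scaffold of the chromosomal passenger complex, was at 29.3 ± 17.7 CPM (SD, n = 8) in vehicle immune libraries, 3.75 ± 6.97 (n = 8) in fibroblasts and 19.5 ± 33.6 (n = 7) in keratinocytes. Cdc20, the activator of the anaphase-promoting complex, was at 5.61 ± 4.61, 8.85 ± 12.6 and 159 ± 199 CPM. For both genes the ranges of neighbouring populations in this order overlapped.

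**Figure D2:**
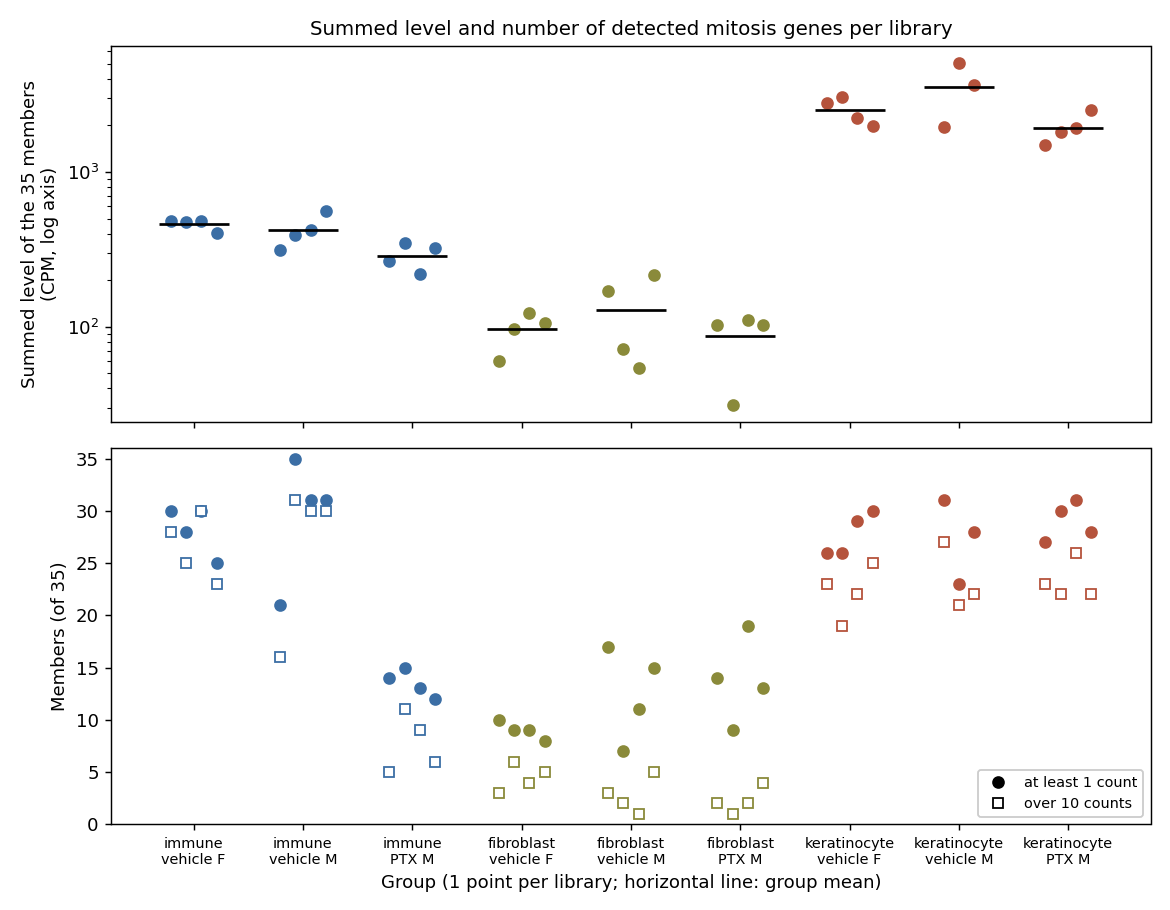
Summed CPM of the 35 genes on a log axis (top) and number of the 35 with at least 1 count (filled) or over 10 counts (open) in each library (bottom), with lines at the group means in the top panel. Immune libraries of PTX males held 12 to 15 of the genes, below every vehicle immune library, while keratinocyte libraries held 23 to 31 in all 3 groups.

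Against vehicle fibroblasts, 25 of the 34 genes tested were higher in vehicle immune cells and none lower (edgeR, 73.5% of the genes, against 13.3% of all 14104 tested genes called higher and 7.91% called lower). In the fits within fibroblasts only 2 of the 35 genes passed the filter on low counts. Most genes thus entered this test through libraries of the other sorts, and a call lower in immune cells was hardly possible for them. For 5 genes every immune library was above every fibroblast library (Ccnb2, Mad2l1, Prc1, Kif23 and Mki67), against 8.54% of all genes. Ttk, the checkpoint kinase that senses unattached kinetochores, was the 1 gene not tested. By role, the 4 kinases Aurka, Plk1, Nek2 and Melk, the 4 kinetochore genes and the 4 genes of the chromosomal passenger complex were all called, as were 3 of 4 cyclin and CDK1 genes. None of the 4 genes of anaphase onset (Cdc20, Ube2c, Espl1 and Pttg1) was called. With vehicle males alone 8 genes were called: Birc5, Ccnb2, Cdca3, Cenpf, Kif23, Mad2l1, Mki67 and Prc1.

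Mki67, which encodes the Ki-67 protein that coats mitotic chromosomes, stood at 107, 102, 75.8 and 62.8 CPM in the immune libraries of vehicle females and at 46.8, 60.3, 58.7 and 88.7 in those of vehicle males. In fibroblasts it ranged over the 8 vehicle libraries from 0 to 0.359 CPM (median 0.193). In keratinocytes it ranged from 93.4 to 779.8 CPM over the 7 vehicle libraries (median 283). Immune and fibroblast libraries did not overlap, and Mki67 was 8.28 ± 0.70 (SE) log2 units higher in immune cells (edgeR adjusted p = 1.4e-09, n = 8 and 8). Between immune cells and keratinocytes the libraries overlapped, and Mki67 was 1.43 ± 0.53 log2 units lower in immune cells (log2 fold change -1.43, edgeR adjusted p = 0.040, n = 8 and 7), a call lost in 9 of the 15 fits that left out 1 library.

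Ccnb2, which encodes cyclin B2, a partner of CDK1 at entry into mitosis, was at 16.5 ± 9.0 CPM (SD, n = 8) in vehicle immune libraries, 0.0526 ± 0.0503 (n = 8) in fibroblasts and 113 ± 86.4 (n = 7) in keratinocytes. Immune and fibroblast libraries again did not overlap, and immune cells were higher by 7.69 ± 1.04 log2 units (edgeR adjusted p = 3.9e-06). Prc1, which bundles the midzone microtubules between separating chromosomes, was at 8.10 ± 6.23, 0.0195 ± 0.0374 and 95.7 ± 92.2 CPM in the same order. Birc5, which encodes survivin of the chromosomal passenger complex, was at 8.14 ± 7.49, 0.0150 ± 0.0424 and 218 ± 115 CPM. For these 3 genes the order of the populations was the same, and the keratinocyte libraries were the most spread in CPM.

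Keratinocytes exceeded vehicle immune cells for 10 of 34 tested genes and were exceeded for none (edgeR, 29.4% of the genes called lower in immune cells, against 8.61% of all 14104 genes called lower and 23.5% called higher). For 4 genes every immune library was below every keratinocyte library, against 3.95% of all genes. The 10 were Cdca3, Birc5, Prc1, Ccnb2, Mad2l1, Ccna2, Cdc20, Top2a, Cenpf and Mki67. Cdca3, an adaptor that brings targets to the SCF ubiquitin ligase before mitosis, was at 8.48 ± 5.24 CPM in immune libraries and 293 ± 220 in keratinocytes, without overlap (log2 difference -4.94 ± 0.91, edgeR adjusted p = 0.00017). Top2a, the topoisomerase that untangles sister chromosomes, lay between 0.554 and 26.1 CPM in the vehicle immune libraries and between 133 and 496 in the vehicle keratinocytes. With vehicle males alone, 3 of these 10 genes were called (Birc5, Cdca3 and Prc1).

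In fibroblasts most of the genes were at or near 0. They were lower than in keratinocytes for 28 of 34 genes tested and higher for none (edgeR, 82.4%, against 10.5% of all 14104 genes called lower and 20.6% called higher). Here too most genes passed the filter on low counts through the other sorts, so a call higher in fibroblasts was hardly possible for them. For 10 genes every fibroblast library was below every keratinocyte library, against 4.75% of all genes. The 6 genes tested and not called were Cdc20, Espl1, Pttg1, Nuf2, Incenp and Kif20a. All 5 spindle motor and assembly genes tested (Kif11, Kif2c, Tpx2, Hmmr and Nusap1) and all 4 cyclin and CDK1 genes were called. In fibroblasts of vehicle females 17 of the 35 genes had no count in any of the 4 libraries, and in those of vehicle males 6. Bub1, Ttk, Kif2c and Tpx2 had none in all 8. A count of 0 allows up to 3 counts per library, for counting error only, and PCR copies of a molecule count as separate reads.

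Pttg1, which encodes securin, the inhibitor of the protease that cuts cohesin at anaphase, was the exception in fibroblasts. It stood at 43.4, 47.2, 96.3 and 26.2 CPM in vehicle females, 87.4, 53.4, 53.1 and 98.4 in vehicle males and 88.2, 30.3, 98.2 and 51.0 with PTX. Those values overlap the 45.8 to 106 CPM of the 8 vehicle immune libraries, and Pttg1 was the only one of the 35 over 10 CPM in every fibroblast library. In vehicle keratinocytes it was as low as 0.219 CPM and as high as 144. Its promoter, printed above, holds neither motif. The same holds for Birc5, Mad2l1, Melk, Nuf2 and Nusap1, which had means of 0.00749 to 0.0377 CPM in vehicle fibroblasts. The part of the promoter in these levels was not tested.

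Other fibroblast values came from 1 or a few libraries. Top2a was at 53.7 CPM in vehicle male 1 and at 0 in the other 3 vehicle males. Espl1, which encodes the protease separase, was at 69.4 CPM in vehicle male 4 and under 1 in the other 3. Cdc20 was at 12.7, 8.75, 12.6 and 0 CPM in vehicle females and at 0, 0, 0.0481 and 36.7 in vehicle males. Ube2c, the ubiquitin-conjugating enzyme of that complex, was at 26.8 CPM in vehicle male 1 and under 1 in the others of its group.

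**Figure D3:**
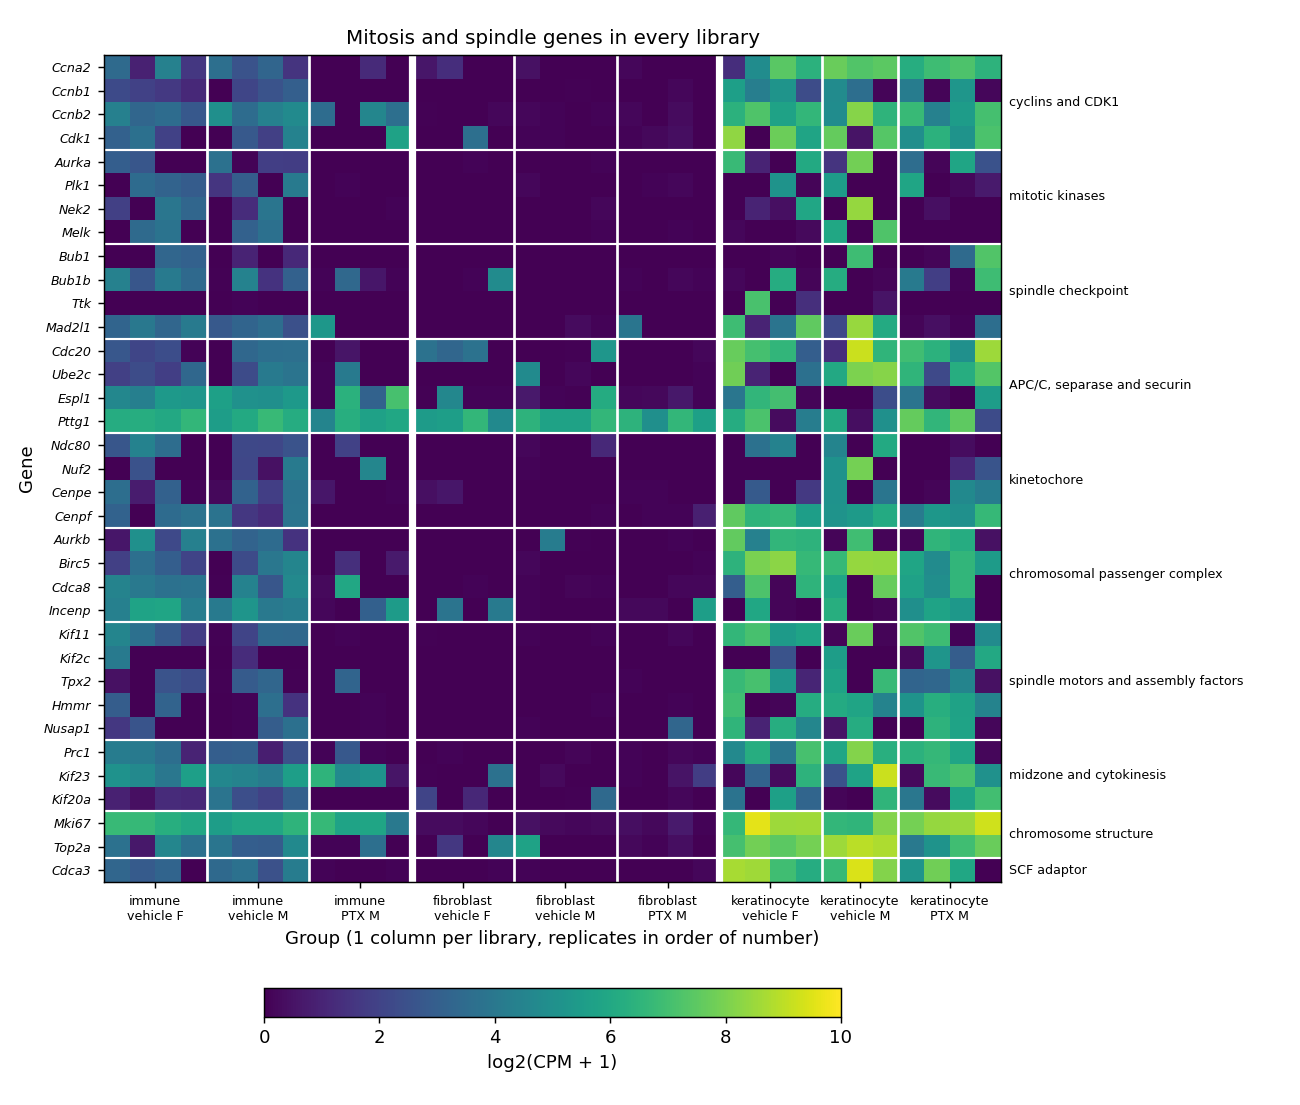
Level of each of the 35 genes, as log2(CPM + 1), in each of the 35 libraries, with genes in rows grouped by role and libraries in columns grouped by sort and treatment. Keratinocyte columns are brightest, fibroblast columns are near 0 except for Pttg1, and in immune columns of PTX males 9 rows are at 0 throughout while Pttg1 and Mki67 stay above 10 CPM in all 4.

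Role by role, the 4 cyclin and CDK1 genes summed to 9.08 to 40.8 CPM in immune cells of vehicle females, 0.120 to 11.6 in fibroblasts and 197 to 474 in keratinocytes of the same sex. The 5 spindle motor and assembly genes summed to 6.28 to 48.2, 0 to 0.0524 and 151 to 419 CPM, and the 4 passenger complex genes to 44.1 to 113, 0 to 16.5 and 279.7 to 482. The anaphase group, which holds Pttg1, was the closest between sorts, at 100.5 to 144, 26.2 to 109 and 37.0 to 515 CPM. In this group the ranges of all 3 sorts overlapped.

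Among members not yet described, Cdk1 was at 6.48 ± 7.06 CPM in the 8 vehicle immune libraries and 135 ± 121 in the 7 keratinocyte libraries, and in fibroblasts at 11.6 CPM in vehicle female 3 and at most 0.0669 in the other 7. Tpx2, which activates Aurora A on the spindle, was at 3.03 ± 3.41 CPM in immune cells and 63.2 ± 54.1 in keratinocytes, and no fibroblast library of the vehicle groups held a read. Hmmr and Nusap1, microtubule-binding proteins of the spindle, were at 3.55 ± 4.63 and 3.21 ± 4.33 CPM in immune cells and at 48.7 ± 44.6 and 37.4 ± 40.3 in keratinocytes. Each of these 4 genes was higher in keratinocytes than in fibroblasts by the test, and none differed by the test between keratinocytes and immune cells. Ndc80 and Nuf2, partners in the complex that grips microtubules at the kinetochore, were at 6.11 ± 6.83 and 3.12 ± 5.69 CPM in immune cells and at 17.5 ± 23.9 and 39.0 ± 89.3 in keratinocytes. Cenpe, a kinetochore motor, was at 5.37 ± 5.14 and 7.90 ± 12.2 CPM, and Bub1b, which encodes the checkpoint protein BubR1, at 10.2 ± 8.03 and 20.7 ± 35.3. For these 4 the SD in keratinocytes exceeded the mean.

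Such all-or-none values were common in the keratinocytes too. A gene was counted here when it was under 1 CPM in 1 library and over 10 CPM in another library of the same group, a rule chosen after the values were seen. In keratinocytes of vehicle females this held for 15 of the 30 genes that passed 10 CPM in any library (50.0%), against 56.1% of all genes that did, and in those of vehicle males for 20 of 33 (60.6%, against 63.7%). In vehicle immune cells it held for 12 of 23 genes in females (52.2%, against 17.4%) and 14 of 27 in males (51.9%, against 17.7%). With PTX it held for 10 of 12 (83.3%, against 59.7% of all genes). Aurka, a kinase of the spindle poles, shows the pattern: it was at 109, 1.01, 0 and 67.0 CPM in keratinocytes of vehicle females and at 1.83, 235 and 0 in those of vehicle males.

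The PTX comparison asked how these genes stood in each population 6 days after the drug. In immune cells fewer of them were detected. With PTX 12 to 15 of the 35 genes had a count, against 21 to 35 in vehicle males and 25 to 30 in vehicle females, so the groups did not overlap. Over all genes, 9459 to 10952 had a count with PTX against 12203 to 13847 in vehicle males and 12163 to 12236 in vehicle females. Genes with over 10 counts numbered 5956 to 8700 with PTX, 11000 to 12813 in vehicle males and 10974 to 11036 in vehicle females. The loss of detected genes was therefore not limited to mitotic genes. Total counts of the PTX libraries (13847475 to 16251636) overlapped those of the vehicle libraries (14437683 to 18979776). At the depth of the shallowest library of the series, 6.1 to 11.3 of the 35 genes were expected to have a count with PTX and 16.2 to 30.1 in vehicle males.

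Against vehicle males, 4 of 33 genes tested were lower with PTX and none higher (edgeR, 12.1%, against 4.56% of all 12131 tested genes called lower and 0.956% called higher). Among the 9217 tested genes with a vehicle male mean in the range of these 33 (0.550 to 72.7 CPM), 5.05% were called lower. The 4 were Aurkb, Kif20a, Cdca3 and Kif11. Of the 33 genes, 26 had a negative and 7 a positive fold change. An unadjusted p under 0.05 was found for 14 of the 33, against 2435 of all 12131 genes tested. The median log2 fold change of the 33 was -3.84, or -1.95 when each gene at 0 takes its bound, against 0.10 over all genes tested. Without scaling beyond library size the median of all genes was -0.25, and 6 genes were called lower. Each PTX library was below each vehicle male library for 6 of the genes tested, against 12.5% of all genes.

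Aurkb, the kinase of the chromosomal passenger complex that corrects faulty attachments of chromosomes, was at 12.1, 8.09, 10.2 and 1.75 CPM in vehicle males and at 0 in all 4 PTX libraries. In vehicle females it was at 0.527, 31.9, 3.61 and 19.5 CPM. Every vehicle library thus held Aurkb reads and no PTX library did. Set against a floor of 3 counts per library, Aurkb was at least 40.4-fold lower with PTX, a bound for counting error only. Its difference had an edgeR adjusted p of 0.028 (n = 4 and 4), and it was the 1 gene also called against vehicle females. Without vehicle male 2 its adjusted p was 0.066, the highest of 8 fits that each left out 1 library, of which 2 lost the call.

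Kif20a, a motor that carries the passenger complex to the midzone, was at 13.4, 4.29, 2.96 and 7.62 CPM in vehicle males and at 0 in all 4 PTX libraries. Vehicle females held 0.896, 0.346, 1.32 and 1.22 CPM, between both male groups. The fall from vehicle males was at least 35.5-fold, again for counting error only. Its edgeR adjusted p was 0.020 (n = 4 and 4). The call was lost in 1 of 8 fits that left out a library (adjusted p = 0.053 without vehicle male 2).

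Cdca3 was at 9.70, 12.4, 4.56 and 17.6 CPM in vehicle males, at 8.90, 6.37, 8.31 and 0 in vehicle females and at 0.0657, 0, 0 and 0.0661 with PTX. The PTX libraries held 2 counts in all against 777 in vehicle males, a ratio of pooled levels of 339 (95% exact interval 93.5 to 2802, counting error only). Its edgeR adjusted p was 0.048, and each of the 8 fits that left out a library lost the call, with an adjusted p of up to 0.098. Kif11, the motor that pushes spindle poles apart, was at 0.0533, 3.17, 9.73 and 9.43 CPM in vehicle males and at 22.6, 11.8, 6.08 and 2.44 in vehicle females, against 0, 0.0615, 0 and 0 with PTX. That is 1 count with PTX against 382 in vehicle males, a ratio of 333 (95% exact interval 59.4 to 13190). The edgeR adjusted p of Kif11 was 0.042, and 7 of 8 such fits lost it. Vehicle male 1 held a single count and overlapped the PTX libraries.

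**Figure D4:**
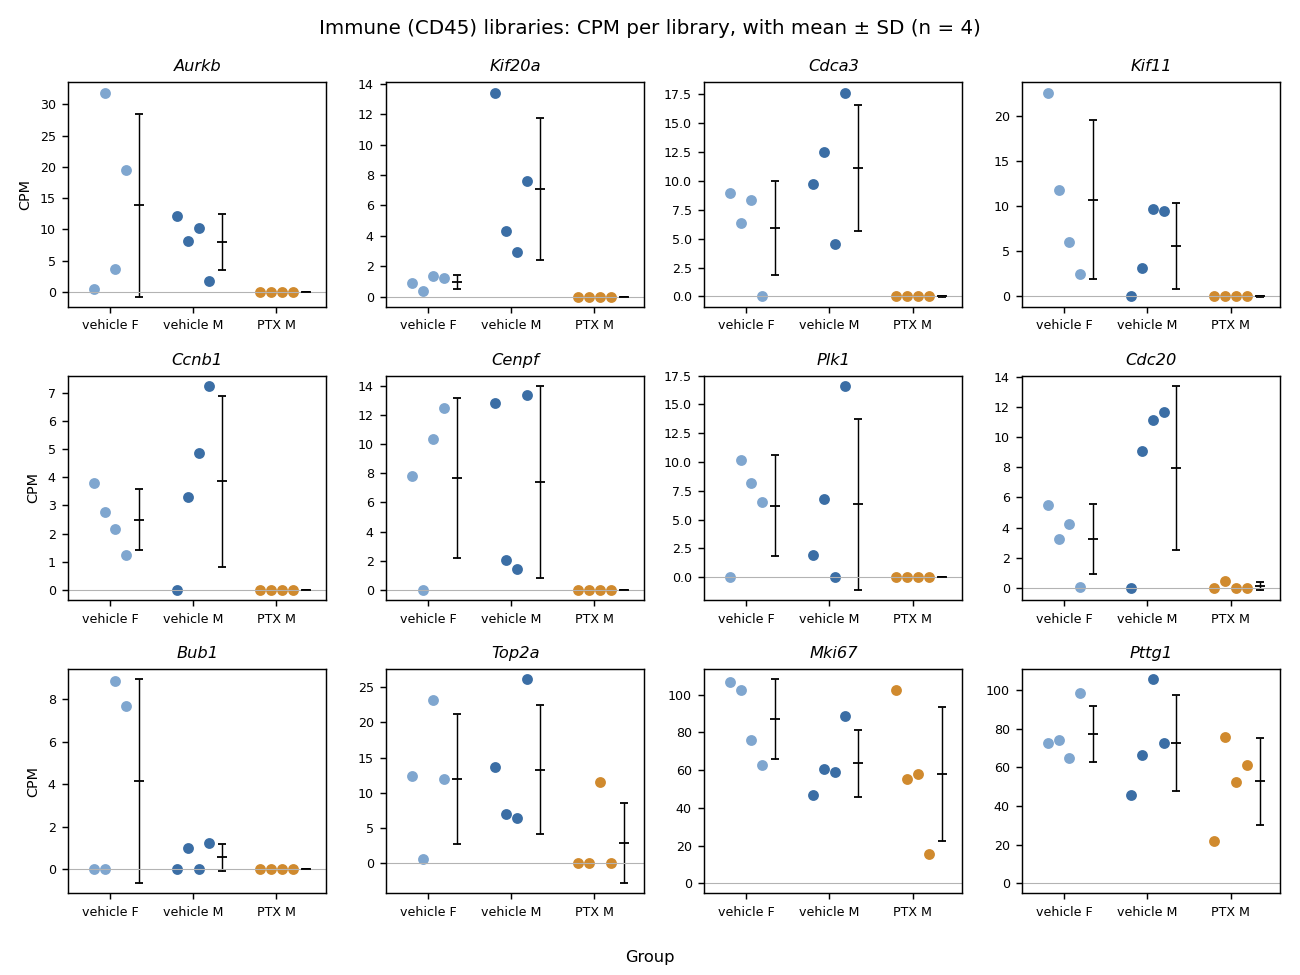
CPM of 12 of the genes in each immune library (points) by group, with the mean ± SD of 4 libraries beside them. The top row holds the 4 genes called lower, at no more than 0.0661 CPM in any PTX library, and the bottom right holds Mki67 and Pttg1, for which 3 of 4 PTX libraries lie within the range of the vehicle libraries.

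In the other roles the gene with the lowest p did not pass, and its values are given as a description. Ccnb1, which encodes cyclin B1, was at 0, 3.30, 4.86 and 7.24 CPM in vehicle males, between 1.22 and 3.79 in vehicle females and at 0 in all 4 PTX libraries (edgeR adjusted p = 0.052). Cenpf, a kinetochore protein made in late cell cycle, was at 12.8, 2.05, 1.42 and 13.4 CPM in vehicle males, at 7.85, 0, 10.4 and 12.5 in vehicle females and at 0 in all 4 PTX libraries (adjusted p = 0.051). Plk1, the kinase that drives spindle formation, was at 1.92, 6.78, 0 and 16.6 CPM in vehicle males and at 0, 0.0615, 0 and 0 with PTX (adjusted p = 0.089). All 3 were thus near the threshold and had at most 1 read in PTX libraries.

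The other roles were less close to the threshold. Cdc20 was at 0, 9.08, 11.1 and 11.6 CPM in vehicle males and at 0, 0.492, 0 and 0 with PTX (edgeR adjusted p = 0.17). Bub1, a kinase of the spindle checkpoint, was at 0, 0.995, 0 and 1.21 CPM in vehicle males and at 0 with PTX (adjusted p = 0.29). Top2a was at 13.7, 6.97, 6.46 and 26.1 CPM in vehicle males and at 0.0657, 0.0615, 11.5 and 0 with PTX (adjusted p = 0.74), so 1 PTX library lay in the vehicle range.

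In the PTX immune libraries 9 of the 35 genes had no count at all: Ccnb1, Aurka, Melk, Bub1, Ttk, Cenpf, Aurkb, Kif2c and Kif20a. Of the 33 genes tested, 7 were at 0 in all 4 (21.2%), against 3.52% of all 12131 genes tested and 4.51% of the 9217 in the abundance range of the 33. That range is wide (0.550 to 72.7 CPM), so it does not match abundance gene by gene. Genes at 0 with PTX passed the filter on low counts through vehicle libraries only. The 35 were also all-or-none more often than all genes in vehicle immune libraries, as given above, and the part of this in the share at 0 was not tested. In vehicle females 1 gene of the 35 was at 0 in all 4 libraries (Ttk) and in vehicle males none. The 4 mitotic kinases summed to 14.3 to 28.1 CPM in vehicle males and 9.64 to 35.8 in vehicle females, and to at most 0.0661 CPM with PTX. With PTX, Aurka and Melk were at 0 and Plk1 and Nek2 had 1 count each.

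Several further genes had low means with PTX and did not pass. Ccna2, which encodes the cyclin of S phase and early mitosis, was at 0, 0, 1.30 and 0 CPM with PTX and at 11.5, 4.91, 8.62 and 1.86 in vehicle males, without overlap (edgeR adjusted p = 0.28). Hmmr and Nusap1 had 1 count each over the 4 PTX libraries, and Cenpe was at 0.526, 0, 0 and 0.0661 CPM (adjusted p between 0.15 and 0.22 for the 3 genes). Birc5 was at 0, 1.54, 0 and 0.661 CPM with PTX and at 0, 3.92, 14.4 and 22.3 in vehicle males (adjusted p = 0.35). All 5 had lower means with PTX, and for Ccna2 alone of them did the groups not overlap.

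Not every mitotic gene was lower. Mki67 was at 102, 55.5, 58.1 and 15.6 CPM with PTX, against 46.8 to 88.7 in vehicle males (log2 fold change 0.22 ± 0.56, edgeR adjusted p = 0.94). Pttg1 was at 22.0, 75.7, 52.1 and 60.9 CPM with PTX, against 45.8 to 106 (-0.11 ± 0.51, adjusted p = 0.97). Mki67 and Pttg1, shown here after their values were seen, were the 2 genes over 10 CPM in every PTX immune library. Espl1 was at 0.0657, 83.5, 7.73 and 135 CPM with PTX and at 30.8 to 50.3 in vehicle males. Kif23, a motor of the midzone, was at 90.7, 26.8, 33.7 and 0.463 CPM against 16.7 to 47.1. PTX values of Espl1 and Kif23 spread beyond both ends of the vehicle range.

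These 4 genes held 66.1 to 81.3% of the CPM of all 35 with PTX, 44.9 to 53.0% in vehicle males and 40.7 to 61.7% in vehicle females. The other 31 genes together were at 49.6 to 109 CPM with PTX, 148 to 307 in vehicle males and 154 to 285 in vehicle females, as a description, since the split was made after the values were seen. Over all 35 the sum was 219 to 349 CPM with PTX and overlapped the 314 to 557 of vehicle males. The group means of 288 and 421 CPM became 357.6 and 372.8 when TMM scaling over all 35 libraries was applied. Single PTX libraries held reads of genes absent from the other 3. Mad2l1, the checkpoint protein that holds back Cdc20, was at 37.9, 0, 0 and 0 CPM. Cdk1, the kinase that starts mitosis, was at 0, 0, 0 and 52.9 CPM, and Cdca8, which encodes borealin of the passenger complex, at 0.197, 63.0, 0 and 0.

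Vehicle females as controls gave 1 call (Aurkb), both vehicle groups together gave 3 (Aurkb, Kif11 and Kif20a), and DESeq2 gave 8 (these 3, Cdca3, Aurka, Ccnb1, Cenpf and Plk1). The shares of all genes called in these fits are not given here, so the counts cannot be set against other genes. Fibroblast and keratinocyte markers were lower with PTX than in vehicle males, as the sums above show, and the 10 endothelial markers summed to 21.5 to 166 CPM with PTX, 236 to 1001 in vehicle males and 187 to 338 in vehicle females. The 9 pericyte and smooth muscle markers summed to 5.32 to 40.7 CPM with PTX, 471 to 2925 in vehicle males and 189 to 823 in vehicle females. Endothelial and pericyte markers thus lay below both vehicle groups without overlap.

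Within the immune sort, pan-immune markers were at 8366 to 13981 CPM with PTX and 6083 to 9831 in vehicle males, and none of the 10 was called. The 10 dendritic and Langerhans cell markers summed to 26845 to 46683 CPM with PTX, 11164 to 17644 in vehicle males and 11711 to 24201 in vehicle females, with 4 called higher against vehicle males and 0 lower (edgeR). The 10 mast cell markers summed to 3232 to 7706 CPM with PTX, 1783 to 3213 in vehicle males and 6733 to 8774 in vehicle females, with 8 called higher and 0 lower. Markers of immune cell types and of other cell types thus differed between PTX and vehicle males beside the mitotic genes. For some lists the vehicle groups differed too. In vehicle females 6 of 10 mast cell markers were called higher than in vehicle males (edgeR, against 0.0659% of all genes). Of the 12 fibroblast markers 6 were called lower there (against 0.289%). The part of these markers in the result was not tested.

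**Figure D5:**
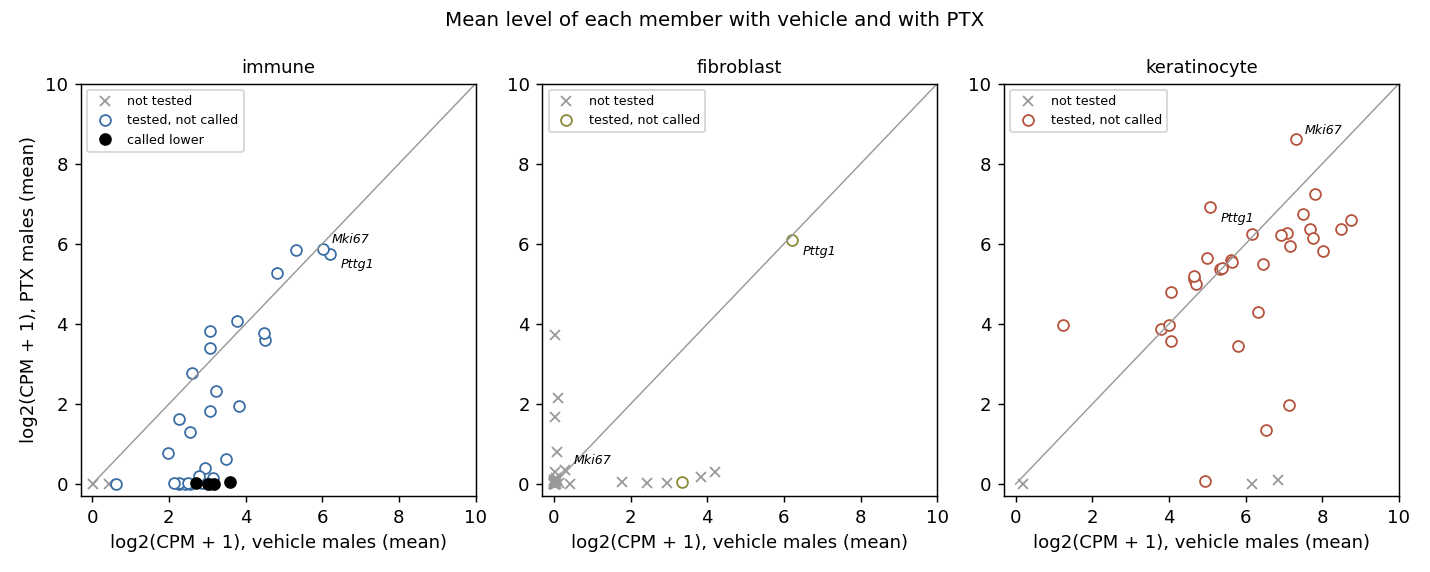
Mean log2(CPM + 1) of each gene with PTX (vertical axis) against vehicle males (horizontal axis) in the 3 sorts, with filled points for genes called lower, open points for genes tested and not called, crosses for genes not tested and a line at equal levels. In immune cells many points lie at 0 on the vertical axis while Mki67 and Pttg1 lie near the line, in fibroblasts 2 genes could be tested, and in keratinocytes the points scatter on both sides.

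In fibroblasts 2 of the 35 genes, Pttg1 and Cdc20, passed the filter on low counts. Neither was called after PTX (edgeR, background 0.00921% of 10857 genes in each direction, DESeq2 0 calls). Of the 2 genes, 1 had an unadjusted p under 0.05, as did 876 of the 10857. Pttg1 had group means of 66.9 CPM with PTX and 73.1 in vehicle males. The other 33 were too low to test. With PTX 9 to 19 of the 35 had a count, against 7 to 17 in vehicle males, and the sum was 31.2 to 111 CPM against 54.1 to 216. Incenp was at 48.2 CPM in PTX male 4 and under 1 in the other 3 PTX libraries.

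In keratinocytes none of the 32 genes tested was called after PTX (edgeR, 0.302% of all 10939 genes called lower and 1.15% higher). An unadjusted p under 0.05 was found for 4 of the 32 (Top2a, Mad2l1, Birc5 and Ndc80), a smaller share than the 1619 of all 10939 genes. DESeq2 called 2 (Birc5 and Mad2l1, both lower), and its share over all genes is not given here. The summed level was 1488 to 2498 CPM with PTX and 1937 to 5042 in vehicle males, with 27 to 31 and 23 to 31 genes detected. Each PTX library was below each vehicle male library for 3 genes, against 4.47% of all genes.

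Top2a was at 15.3, 33.7, 121 and 209.8 CPM with PTX, at 365, 496 and 437 in vehicle males and at 133, 233, 177 and 238 in vehicle females. The PTX libraries lay below the vehicle males without overlap but overlapped the vehicle females, and the log2 fold change was -2.19 ± 0.82 (edgeR adjusted p = 0.23, n = 4 and 3). Birc5 was at 58.3, 27.0, 93.6 and 44.5 CPM with PTX and at 102, 339 and 328 in vehicle males (-2.27 ± 0.93, adjusted p = 0.26). Mki67 went the other way, at 243, 344, 362 and 619.9 CPM with PTX against 96.9, 93.4 and 283 (1.35 ± 0.68, adjusted p = 0.37). Cenpf, at 0 in every PTX immune library, was at 16.9, 38.2, 31.8 and 103 CPM in the PTX keratinocytes and at 33.8, 43.1 and 67.5 in vehicle males (0.02 ± 1.48). Endothelial, fibroblast and immune markers were higher and keratinocyte markers lower in the PTX keratinocyte libraries, and their part in these values was not tested. The spread between libraries was widest here, with a biological coefficient of variation of 1.71 over all genes, against 1.23 in immune and 1.41 in fibroblast libraries.

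Whether the PTX difference itself differed between populations was tested with an interaction term. The difference in immune cells was lower than in fibroblasts for 1 of 33 genes tested (edgeR, 3.03%, against 3.15% of all 13329 genes called lower and 0.36% higher) and lower than in keratinocytes for 1 of 34 (2.94%, against 9.26% of all 13829 called lower and 0.347% higher). Both shares are near or under the share of all genes. The gene was Cenpf in both (edgeR adjusted p = 0.041 and 0.024). The comparisons share the immune libraries. Against fibroblasts the call rests on fibroblast levels under 1 CPM (0, 0, 0 and 0.0614 in vehicle males, 0, 0.0749, 0.0711 and 0.831 with PTX), and 13 of 16 fits that left out a library lost it.

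Between vehicle females and vehicle males none of the 35 genes was called in any population. In immune cells 33 genes were tested (edgeR, 0.289% of 12131 genes called lower in females and 0.0659% higher), with 0 at an unadjusted p under 0.05 and 0 by DESeq2. In fibroblasts 2 were tested (background 0.00921% in each direction), also with 0 and 0. In keratinocytes 32 were tested (background 0.00914% higher and 0.0% lower). An unadjusted p under 0.05 was found for 2 (Bub1 and Nuf2), against 877 of all 10939 genes, and DESeq2 called 1 (Nuf2). Nuf2 had no count in the 4 female libraries and was at 33.3, 239 and 0 CPM in the males.

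Other genes of the cell cycle were taken from 4 further lists. Of 61 other mitosis genes, 46 could be tested in immune cells after PTX, of which 0 were called higher and 1 lower. That is 2.17% of the 46, under the 4.56% of all genes called lower. The 46 had a median log2 fold change of -1.39, and 21 had an unadjusted p under 0.05, against 2435 of all 12131 genes tested. The gene called was Cenpw, a histone-fold protein of the centromere, at 4.33 ± 3.38 CPM in vehicle males and 1 count in the PTX libraries (edgeR adjusted p = 0.037). At rest, 29 of 60 such genes were higher and 1 lower in immune cells than in fibroblasts, against 13.3% and 7.91% of all genes. In fibroblasts 41 of 60 were lower than in keratinocytes and 0 higher, against 10.5% and 20.6%. In the fits within fibroblasts 13 of these genes passed the filter on low counts, so most entered both tests through other sorts. Between immune cells and keratinocytes 2 of 60 were higher and 6 lower in immune cells, against 23.5% and 8.61% of all genes. Cenpa, the histone variant that marks centromeres, was at 44.1 ± 10.7 CPM in vehicle immune libraries and 2.04 ± 4.72 in fibroblasts (log2 difference 5.19 ± 1.10, adjusted p = 0.0011, n = 8 and 8).

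Of the 50 DNA replication and S phase genes, 43 were tested in immune cells after PTX and none was called (edgeR, median -0.30). An unadjusted p under 0.05 was found for 6 of the 43, a smaller share than the 2435 of all 12131 genes tested. The lowest p belonged to Rfc4, a subunit of the clamp loader, at 16.8 ± 18.1 CPM in vehicle males and 0 with PTX (adjusted p = 0.053). At rest 7 of 49 were higher in immune cells than in fibroblasts (14.3%, against 13.3% of all genes) and 0 lower (against 7.91%). The share called higher is near that of all genes. In fibroblasts 15 of 49 were lower than in keratinocytes (30.6%, against 10.5% of all genes) and 1 higher (2.04%, against 20.6%). Tk1, a thymidine kinase of S phase, was at 1.53 ± 1.61 CPM in vehicle fibroblasts and 139 ± 41.1 in keratinocytes (log2 difference -5.99 ± 1.36, adjusted p = 0.0016).

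Of 20 cell cycle transcription factors, 19 were tested in immune cells after PTX and none passed (edgeR, median -0.08). An unadjusted p under 0.05 was found for 4 of the 19, near the share of all genes (2435 of 12131). E2f4, a repressor of cell cycle genes in resting cells, was at 20.6 ± 7.81 CPM in vehicle males and 0.519 ± 0.643 with PTX (log2 fold change -4.88 ± 1.35, adjusted p = 0.052). Of 19 G1 cyclin and CDK inhibitor genes, 17 were tested there, with 0 higher and 2 lower (11.8%, against 4.56% of all genes called lower). Gas1, a growth-arrest gene, fell from 108 ± 12.7 to 1.10 ± 0.631 CPM (log2 fold change -6.23 ± 1.06, adjusted p = 0.0076, n = 4 and 4). In immune cells of vehicle females Gas1 was at 6.62 ± 4.31 CPM, also below the vehicle males (log2 difference -3.90 ± 0.95, adjusted p = 0.12), and in vehicle fibroblasts it was at 805 ± 190.0 CPM (n = 8). Ccng2, a cyclin of non-dividing cells, fell from 11.3 ± 0.571 to 0.145 ± 0.0969 CPM (adjusted p = 0.029).

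In keratinocytes after PTX, Ccnd2, a D-type cyclin that carries cells from G1 towards S phase, fell from 1618 ± 369 CPM (n = 3) to 257 ± 31.3 (n = 4, log2 fold change -2.63 ± 0.32, edgeR adjusted p = 0.00016). It was the 1 gene of 18 tested in the G1 list that was called there (5.56%, against 0.302% of all genes called lower). Its call stood beside the lower keratinocyte markers of these libraries given above. In fibroblasts no gene of the 4 lists was called after PTX (edgeR, of 13, 26, 13 and 15 tested, with 2, 4, 1 and 1 at an unadjusted p under 0.05). Over all 10857 genes tested in fibroblasts, 876 had such a p. Cdkn1a, which encodes the CDK inhibitor p21, was at 363 ± 85.5 CPM in fibroblasts of vehicle males and 789.5 ± 145 with PTX (1.16 ± 0.31, adjusted p = 0.45).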

How the data were processed

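The authors deposited 1 table per library with the count of reads per gene symbol. Libraries were stranded TruSeq mRNA, read as 50 bases from 1 end, per the labels' protocols. The submitters' processing notes name bcl2fastq, TopHat2, HTSeq and the mouse build mm9, with no versions. Rows that name no gene, such as reads without a unique place, stayed out of totals and tests, so genes that share sequence with copies may be undercounted.

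CPM were computed here from the counts. Tests were two-sided edgeR 4.0.16 quasi-likelihood fits (R 4.3.3) after filterByExpr and TMM scaling, within each population for PTX and sex and over all vehicle libraries for populations, with Benjamini-Hochberg adjustment over all genes tested. Alternatives used RLE or no scaling, no filter, DESeq2 1.42.0, limma 3.58.1 voom weights, other controls, a replicate block and leaving out each library. The code was tested on simulated data, where recovery of set changes was required only at a spread well below that of these data.

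The members and lists were chosen with earlier results of these data known. Per-library values are given for members called after PTX and, in roles without a call in immune cells, the member with the lowest p. Espl1, Kif23, Mki67, Pttg1 and other members shown were chosen after their values were seen. From further lists at most 4 called genes, or 2 with the lowest p, could be named. Libraries were not paired by replicate number in the main fits, and no pair of libraries within a group was a duplicate (lowest chi-square per gene 89.8 over 51 pairs).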

Additional observations from a re-analysis of the deposited data

Results flagged for a closer look

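A sample is listed here when the gap to its nearest neighbour is large against the whole range of its group of 4. Chance alone marks about 1 in 20 groups this way, but more where a gene is at 0 in most libraries, since 1 read is then enough. The list is not complete: Mad2l1 and Cdk1, each with reads in 1 PTX immune library alone, are not on it. In immune cells of vehicle females, library 4 had a summed level of the 35 genes of 401.27 CPM, whereas the other 3 lay between 477.6 and 480.5. In the same group, library 2 had 11036 genes over 10 counts against 10974 to 10978 in the other 3, a difference of under 1%. In fibroblasts of PTX males, library 2 had a summed level of 31.215 CPM against 103.4 to 110.7.

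In immune cells of PTX males, Kif11 was at 0.061532 CPM and Plk1 at 0.061532 CPM in library 2, each from 1 count, and both were at 0 in the other 3. Cdc20 was at 0.49226 CPM in library 2 and 0 in the others. Top2a was at 11.482 CPM in library 3 and at most 0.0657 in the others.

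The PTX difference of Cenpf differed between populations by the interaction test. Its fitted log2 difference was -13.12 for immune cells less fibroblasts (edgeR adjusted p = 0.041) and -9.461 for immune cells less keratinocytes (edgeR adjusted p = 0.024). Both fitted values rest on 4 immune PTX libraries at 0, so their size depends on the prior count and is no bound.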

How the results depend on the processing

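No direction reversed under any alternative. Shares of all genes called under the alternatives are not given here, so the counts below cannot be set against other genes. After PTX in immune cells the 4 calls became 2 without the filter on low counts, 8 with DESeq2, 0 with voom quality weights, 1 with vehicle females as controls and 0 to 4 when 1 library was left out. The count was 0 without vehicle male 2, 1 without vehicle male 3 and 2 without vehicle male 4, PTX male 2 or PTX male 4, and none of the 4 genes was called in every such fit. DESeq2 called 2 genes after PTX and 1 between the sexes in keratinocytes, where edgeR called 0. Against fibroblasts, vehicle males alone gave 8 genes in place of 25, and immune cells against keratinocytes gave 3 in place of 10. The interaction of immune cells with fibroblasts gave 0 calls without the filter, 6 with DESeq2 and 0 to 1 without 1 library. That with keratinocytes gave 2 without scaling, 9 with DESeq2 and 0 to 3 without 1 library. Of the calls at rest, 22 of 25, 3 of 10 and 21 of 28 were kept in every fit that left out a library. Among values of single genes, 94 were no longer past the threshold and 389 stayed on their side of it.

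With the replicate block, immune cells had 0 calls after PTX, and the interactions 0 and 0. At rest the block gave 23, 8 and 25 calls. Deviations of same-numbered libraries correlated at -0.0489 to 0.114, and 1 pair was over 0.1. Between immune vehicle females and vehicle males, 3 of 4 libraries correlated best with the library of their own number, and between other groups 0 to 2. Correlations over so few libraries cannot show whether a number stands for a shared batch.

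Counting a gene as detected only over 10 counts gave means of 7.75 genes in immune cells with PTX, 4.5, 2.75 and 2.25 in fibroblasts of vehicle females, vehicle males and PTX males, and 22.25 and 23.25 in keratinocytes of vehicle females and PTX males. With TMM scaling over all 35 libraries, the mean summed level was 357.6 CPM in immune cells with PTX, against 372.8 in those of vehicle males and 449.2 in those of vehicle females, and 1896 in keratinocytes of vehicle females.

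A count of 0 allows up to 3 counts per library. Fibroblast changes could not be tested for 33 of the 35 genes.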

Other observations

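Among PTX immune libraries, the library with the most reads differed from gene to gene. Mad2l1 was highest in PTX male 1 (37.9 CPM), Cdca8, Ube2c and Tpx2 in PTX male 2 (63.0, 16.0 and 8.31 CPM), Nuf2 and Top2a in PTX male 3 (23.4 and 11.5 CPM) and Cdk1 and Incenp in PTX male 4 (52.9 and 43.4 CPM).

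Keratinocyte vehicle male 2, with the highest summed level of the series (5042 CPM), held 235 CPM of Aurka, 345 of Nek2, 348 of Mad2l1, 239 of Nuf2 and 118 of Bub1, and no reads of Plk1, Melk, Ttk or Espl1.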
